A study of Rattus norvegicus with 36 samples.

Results

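The soleus muscle of rats 3 days after a contusion of the spinal cord (SCI3d) was compared gene by gene with the soleus of uninjured controls, to describe the muscle in the acute phase of unloading. Arrays were chosen by their titles, 6 of SCI3d and 6 of controls, which made 12 of the 36 arrays of the series. All animals were adult female Sprague Dawley rats of matched age, and each rat gave 1 array from its left soleus. SCI3d rats had a laminectomy under anesthesia and a moderate contusion at thoracic level T8 from a weight dropped by a NYU-MASCIS device, and were not trained on the treadmill. After surgery they received analgesics, were housed singly, had their bladders expressed by hand and were offered a dough diet beside their chow. Control rats are labelled as the time point before injury, without training. No sham-operated group is among the labels, so the effect of the cord lesion cannot be told apart from those of surgery, drugs, housing and diet. The other 24 arrays came from injured rats on days 8 and 14, with and without treadmill training. Of these, only the 6 untrained day 8 arrays (SCI8d) were set beside SCI3d, to show which differences had moved 5 days later, and the rest entered the estimate of the spread. The contusion spares part of the cord, and the lumbar motor neurons that supply the soleus lie below it.

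The soleus is a postural calf muscle of mainly slow, oxidative fibers that are active whenever the animal stands. When such a muscle stops bearing load it loses mass within days, as its proteins are broken down faster than they are made. Most of that breakdown runs through the ubiquitin-proteasome system, in which ubiquitin is attached to a protein by E1, E2 and E3 enzymes and the tagged protein is unfolded by the 19S regulator and cut inside the 20S core of the proteasome. Slow fibers live on fatty acids, ketone bodies and lactate burned in mitochondria, and the genes of these pathways are driven by the coactivator PGC-1 with the ERR and PPAR receptors.

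Values are signals of the Affymetrix rat expression array, a scale on which 1 probe set can be compared between arrays, while levels of different genes cannot be compared. Of 14217 genes that were read from a probe set of their own, 3065 (21.6%) passed an adjusted p of 0.05 in limma (the level at which a gene is called higher or lower below), 1277 being higher in SCI3d (8.98% of genes tested) and 1788 lower (12.6%). The median log2 fold change of all genes was -0.07, and that of probe sets without a filter on symbols was -0.04. Over all 31042 probe sets 2241 (7.22%) were called higher and 2868 (9.24%) lower, and with arrays centred on their medians the split turned to 2910 higher and 2051 lower. All 6 SCI3d arrays lay above all 6 control arrays for 660 genes (4.64%) and below them for 880 genes (6.19%). Among called genes, 341 were more than 2-fold higher and 667 more than 2-fold lower, and 64 and 123 passed 4-fold. Median signals of whole arrays ran from 190.1 to 198 in controls and from 166 to 187 in SCI3d, without overlap. Control replicate 3 stood apart by its ratio of 3' to 5' GAPDH signal, a sign of RNA quality, at 1.61 against 1.02 to 1.21 on the other 11 arrays.

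Markers of slow muscle were bright in both groups. Slow myosin Myh7 read from 54687 to 87506 (median 63029) in controls and from 51124 to 86081 (median 64124) in SCI3d. Slow troponin Tnnt1 read from 45748 to 66457 (median 49469.7) in controls and from 38983 to 61903 (median 43738) in SCI3d. These signals are near the top of the array's scale in every rat. Of the 8 markers of slow soleus fibers 0 were called (against 21.6% of all genes), and 6 were lower on average. The muscles were whole tissue, so fewer cells of a type and less RNA per cell cannot be told apart in any value given here. Markers of fast muscle varied widely among controls, where fast alpha-actinin Actn3 ran from 123 to 9935 and Myh4, the fastest myosin, from 36.5 to 7924. Control replicate 2 stood highest. Its mean log2 signal over the fast muscle markers, relative to the control mean, was 2.43, against -1.01 to 0.30 on the other controls. The part of neighbouring muscle in that array was not tested.

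Tendon and fat markers were lower in SCI3d. Of 8 measured tendon and cartilage markers 5 were called lower, with a median log2 fold change of -2.01. Scleraxis (Scx), the transcription factor that defines tendon cells, read from 2302 to 5492 (median 3924) in controls and from 321 to 2224 (median 971) in SCI3d. Tenomodulin (Tnmd), a surface protein of tendon cells, read from 884 to 11186 (median 4829) in controls and from 112 to 1971 (median 1058) in SCI3d. The SCI3d arrays were all below the controls for Scx, while for Tnmd the groups overlapped. Of 9 adipocyte markers 5 were called lower (median log2 fold change -1.51). Adiponectin (Adipoq), a fat cell hormone, read from 735 to 5588 (median 1363) in controls and from 140.2 to 841 (median 202) in SCI3d. Leptin (Lep) was at signals of at most 63.6 on every array. The summed level of the tendon list, given as the mean log2 deviation from the control mean, was -1.80 to 1.01 in controls and -3.07 to -1.57 in SCI3d, and that of the adipocyte list was -0.62 to 0.73 and -1.89 to -0.77. Genes of fatty acid uptake and storage, described below, were lower in the same arrays, and the part of fat tissue in that result was not tested. The collagens did not share the low median of the tendon list, with a median log2 fold change of 0.43. Of 17 collagens 4 were called higher and 2 lower, and the higher count was 0 without SCI3d replicate 2.

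The 5 measured red cell markers were higher on average. Of these 5 markers 3 were called, among them Alas2, the first enzyme of heme synthesis in red cells, at from 751 to 1748 (median 1077) in controls and from 1337 to 6139 (median 3450.5) in SCI3d. The count of calls ran from 1 to 4 over the alternatives run. The mean of the list reached 0.58 in controls and ran from 0.51 to 2.50 in SCI3d, with overlap. The bulk of the globin signal differed less, since Hbb, the beta chain of hemoglobin, had a log2 fold change of 0.40 (adjusted p = 0.0628). Markers of infiltrating cells were called at counts near or below the shares of all genes (8.98% higher and 12.6% lower). Of 17 macrophage markers 1 was called higher and 1 lower, of 6 neutrophil markers 0, and of 8 lymphocyte markers 1 was lower. On average 12 of the 17 macrophage markers were higher and 5 lower. Cd68, a defining macrophage marker, had a log2 fold change of 0.50 (adjusted p = 0.332), and the mean of the macrophage list ran from -0.38 to 0.48 in controls and from -0.47 to 0.95 in SCI3d. Neutrophil genes were high in a few controls, with S100a9 from 154 to 23062 there against 586 to 4346 in SCI3d.

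**Figure D1:**
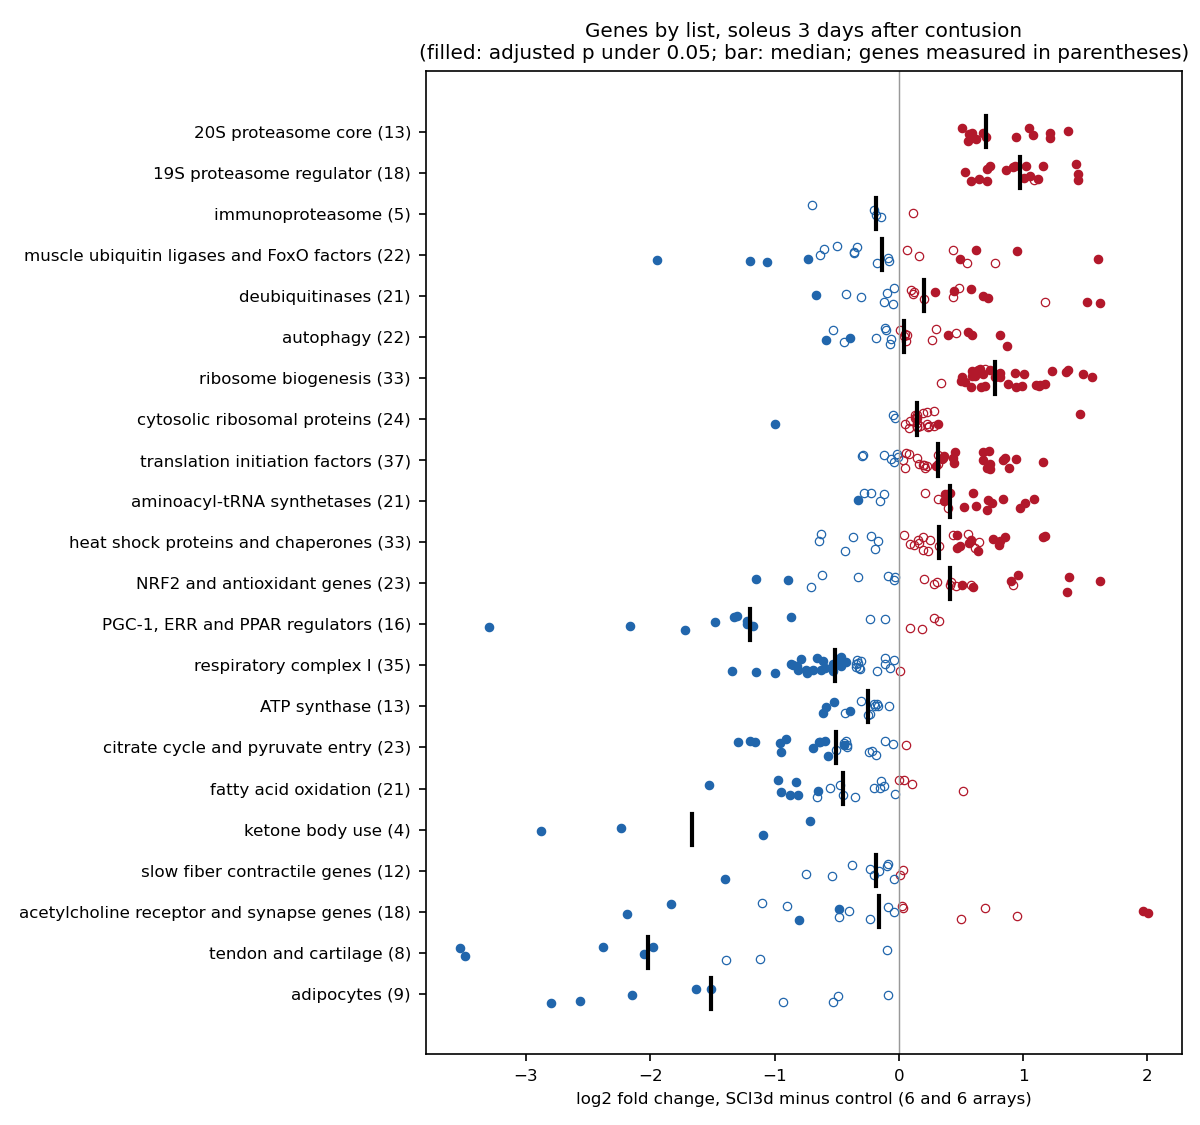
Log2 fold change of SCI3d over controls for the measured genes of 22 lists, 1 point a gene, filled where the gene was called, with a bar at the median of each list. The 19S and 20S proteasome and ribosome biogenesis lists lie almost wholly to the right of 0, and complex I and ketone body use to the left, while 12 of 16 genes of the PGC-1, ERR and PPAR list lie to the left.

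The genes with the highest ratios belonged to many functions. Neurl3, a ubiquitin ligase of the neuralized family, read from 64.7 to 199 (median 149.7) in controls and from 677 to 5037 (median 2786) in SCI3d. Pvr, a cell adhesion receptor, read from 465 to 915 (median 498) in controls and from 2780.5 to 14164 (median 6646) in SCI3d. Mybph, a myosin binding protein of the thick filament, read from 1336 to 5835 (median 2115) in controls and from 9307 to 49086 (median 36426) in SCI3d. For all 3 the groups did not overlap, and the log2 fold changes were 4.14 ± 0.61 (SE) for Neurl3 and 3.74 ± 0.57 for Mybph, with Pvr 11.3-fold higher (adjusted p = 9.45e-06, 1.4e-05 and 1.58e-05). E2f8, a cell cycle repressor, and Slco4a1, a transporter of thyroid hormones and other organic anions, also ranked among the 15 highest ratios, with log2 fold changes of 3.75 and 3.69. Ifi27l2b, of a family of interferon-inducible genes, was bright in both groups and rose 7.39-fold (adjusted p = 1.75e-06). Tubb6, a beta-tubulin that is high in regenerating fibers, was 8.04-fold higher by its brightest probe set and had a log2 fold change of 0.75 by its other probe set, so its size depends on the probe set read. Oasl, a protein induced by interferon, ran from 252 to 11492 in SCI3d, the widest range among these genes. Of 22 interferon response genes 2 were called higher, near the share of 8.98% of all genes.

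Among the lowest ratios, Asb18, a substrate adaptor of ubiquitin ligases of the ankyrin and SOCS box family found in muscle, read from 2628 to 4713 (median 3716) in controls and from 97.3 to 730.4 (median 307) in SCI3d. Lgi1, a secreted protein known from the brain, read from 700.0 to 1921 (median 1280.4) in controls and from 53.9 to 505 (median 130.3) in SCI3d. Bbs9, a subunit of the BBSome that carries cargo to cilia, read from 2254 to 4027 (median 3512) in controls and from 225 to 778 (median 414) in SCI3d. In each case the highest SCI3d array was below the lowest control. Their log2 fold changes were -3.58 ± 0.57, -3.34 ± 0.54 and -2.94 ± 0.35 (adjusted p = 2.78e-05, 3.1e-05 and 4.37e-07). Vegfb, a growth factor linked to lipid uptake by vessels, was outside the 15 lowest and was 4.59-fold lower (adjusted p = 6.26e-06), and Apln, the peptide apelin, 5.55-fold. Scd, which makes monounsaturated fatty acids, read from 201 to 13146 (median 888) in controls and from 13.9 to 339 (median 188) in SCI3d, and a single control array set the upper end of that range. Its log2 fold change was -3.17, or -2.44 without control replicate 3 and -2.56 without SCI3d replicate 3.

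Nearly all genes of the 20S core and the 19S regulator were higher. Promoters of 2 of its genes, 1 of the core and 1 of the regulator, are shown because both hold the letters TGACNNNGC, a form of the antioxidant response element through which NRF1 and NRF2 are known to drive proteasome genes. Each runs from 250 bases before to 50 bases after the start of the gene in RefSeq, build GRCr8, read along the gene, with the match in capitals (Psmb2 at chr5:144254808-144255107, plus strand, and Psmd3 at chr10:84139688-84139987, plus strand, where the match lies on the opposite strand).
Psmb2: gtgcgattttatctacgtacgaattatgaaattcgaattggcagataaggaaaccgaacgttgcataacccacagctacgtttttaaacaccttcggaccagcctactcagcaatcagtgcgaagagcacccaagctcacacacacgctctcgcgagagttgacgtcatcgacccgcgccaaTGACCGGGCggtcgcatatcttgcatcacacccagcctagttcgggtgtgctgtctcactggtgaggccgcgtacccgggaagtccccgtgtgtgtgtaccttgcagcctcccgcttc
Psmd3: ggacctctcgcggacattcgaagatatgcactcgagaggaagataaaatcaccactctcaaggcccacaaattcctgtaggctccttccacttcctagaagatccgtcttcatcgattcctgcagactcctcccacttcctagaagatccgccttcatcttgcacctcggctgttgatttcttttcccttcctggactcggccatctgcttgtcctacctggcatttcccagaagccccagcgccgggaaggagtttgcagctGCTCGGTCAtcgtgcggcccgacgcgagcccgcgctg
Searched on both strands, the letters occurred in 3 of 12 promoters of the 20S core and 3 of 15 of the 19S regulator that were found in the table, against 12.18% of all 27457 promoters of the same length and 14.35% of those of genes on the array. Both are counts over few promoters and carry no test.

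All 13 measured genes of the 20S core were called higher, with log2 fold changes from 0.51 to 1.37 and a median of 0.70. Psmb2, whose promoter is shown, read from 6683 to 8533 (median 7356) in controls and from 11330.4 to 23461 (median 17513) in SCI3d. Psmb3, also a beta subunit, read from 6036 to 7580.3 (median 7102) in controls and from 14829 to 23021 (median 17931) in SCI3d. Psmb5, the subunit that cuts after hydrophobic residues, read from 12852 to 14500.1 (median 13409) in controls and from 17816 to 21498 (median 19161) in SCI3d. The groups did not overlap for any of the 3, and the ratio ran from 1.42-fold for Psmb5 to 2.58-fold for Psmb3 (adjusted p = 0.000175 and 4.45e-09). Psmb5 lost its call in the mean of its 3 probe sets (0.22, adjusted p = 0.696).

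Of 18 genes of the 19S regulator 17 were called higher (median log2 fold change 0.97), and the remaining gene, Adrm1, named here after its value was seen, had an adjusted p of 0.0501. Psmc4, an ATPase of the ring that unfolds substrates, read from 5140.4 to 6343 (median 5765) in controls and from 13898 to 17028 (median 16030.4) in SCI3d. It had the smallest adjusted p of all genes, at 2.49e-09, with a log2 fold change of 1.45 ± 0.12. Psmd11, a scaffold subunit of the lid, read from 6575 to 7494 (median 6959) in controls and from 16434 to 20677 (median 19077) in SCI3d. Psmd3, whose promoter is shown, read from 2295 to 2724 (median 2532) in controls and from 5249 to 9686 (median 6547) in SCI3d. Every SCI3d array was above every control for all 3 genes. Of 12 genes of proteasome assembly and other activators 4 were higher and 1 lower. Psmd5, a chaperone of assembly, was 3.3-fold higher, and Psme4, the activator PA200, 1.47-fold (adjusted p = 7.42e-07 and 0.00158). Psme4 lost its call in the mean of its probe sets (0.118) and with arrays scaled to Gapdh (0.0514, each an adjusted p). The genes of the immunoproteasome, whose subunits are made under interferon, gave 0 calls out of 5. Its catalytic subunit Psmb8 read from 479 to 576 (median 515) in controls and from 392 to 594 (median 413) in SCI3d, with overlapping groups.

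Upstream of the proteasome the enzymes moved in both directions. Of 16 ubiquitin, E1 and E2 genes 5 were higher and 1 lower. Ube2j1, the E2 enzyme of the endoplasmic reticulum, read from 1158 to 1453 (median 1357) in controls and from 2039 to 3523 (median 2845) in SCI3d. Ube2a, an E2 enzyme that acts with the ligases of the N-degron pathway, read from 2491 to 3617 (median 3043) in controls and from 1170.3 to 1909 (median 1685) in SCI3d. Ube2b, its close homolog that has been tied to muscle wasting, had overlapping ranges and a log2 fold change of -0.21 (adjusted p = 0.284). Among 22 muscle ligases and FoxO factors 4 were called higher and 4 lower, and 7 were lower without SCI3d replicate 3. Klhl40, an adaptor that stabilizes thin filament proteins, read from 8456 to 11668 (median 10283) in controls and from 20811 to 42149 (median 34016) in SCI3d. Trim72, a membrane repair protein of muscle also called MG53, read from 16398 to 20709.5 (median 17284) in controls and from 5761 to 10299 (median 9355) in SCI3d. These were opposite changes of bright genes without overlap, at log2 fold changes of 1.60 and -1.06 (adjusted p = 0.000123 and 2.58e-05). Asb2, an adaptor that limits muscle mass when overexpressed, read from 16457 to 24516 (median 20614) in controls and from 5329.7 to 13412 (median 10685) in SCI3d, below the controls on every array.

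The best known atrophy ligase genes did not share 1 direction. Fbxo32 (atrogin-1) read from 186 to 860.2 (median 538) in controls and from 136 to 564 (median 371) in SCI3d, with overlapping ranges and an adjusted p of 0.281. Trim63 (MuRF1) was 1.93-fold higher (adjusted p = 0.000269). Fbxo30, the ligase MUSA1, had a log2 fold change of 0.55 (adjusted p = 0.187), and the FoxO factors, which drive several of these ligases, were not called, with Foxo1 at -0.18 (0.677) and Foxo3 at -0.36 (0.101). Deubiquitinases, which remove ubiquitin, were called higher in 7 of 21 cases and lower in 1, against 8.98% and 12.6% of all genes. Usp5, which disassembles free ubiquitin chains, read from 2038 to 2540.0 (median 2265) in controls and from 4589 to 11616 (median 6791) in SCI3d. Usp14, the deubiquitinase bound to the proteasome, read from 6597 to 8583 (median 7416) in controls and from 10310.4 to 16079.9 (median 11606) in SCI3d. Both were higher on every SCI3d array than on any control.

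Autophagy and lysosome genes were called in both directions. Of 22 autophagy genes 5 were higher and 2 lower, against 8.98% and 12.6% of all genes. Of 22 lysosomal genes 2 were higher and 2 lower, near the share of 21.6% of all genes called. That higher count was 1 without control replicate 3 or SCI3d replicate 2. Sqstm1, the receptor p62 that ties ubiquitin to autophagy, read from 20499 to 27915 (median 22698) in controls and from 29059 to 39362 (median 34813) in SCI3d. Of its other 3 probe sets 1 was called higher, with a log2 fold change of 1.32, and 2 dim ones were not called (-1.25 and -0.30), so that the mean over all 4 was 0.08 (adjusted p = 0.769). Wipi2, which marks the growing autophagosome, rose 1.83-fold (adjusted p = 0.000116), and Ctsd, the lysosomal protease cathepsin D, had a log2 fold change of 0.23 (0.244). Of 9 calpain and caspase genes 2 were lower and 0 higher, and 0 were lower without SCI3d replicate 2 and 1 without control replicate 1 or 2 or SCI3d replicate 3 or 4.

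**Figure D2:**
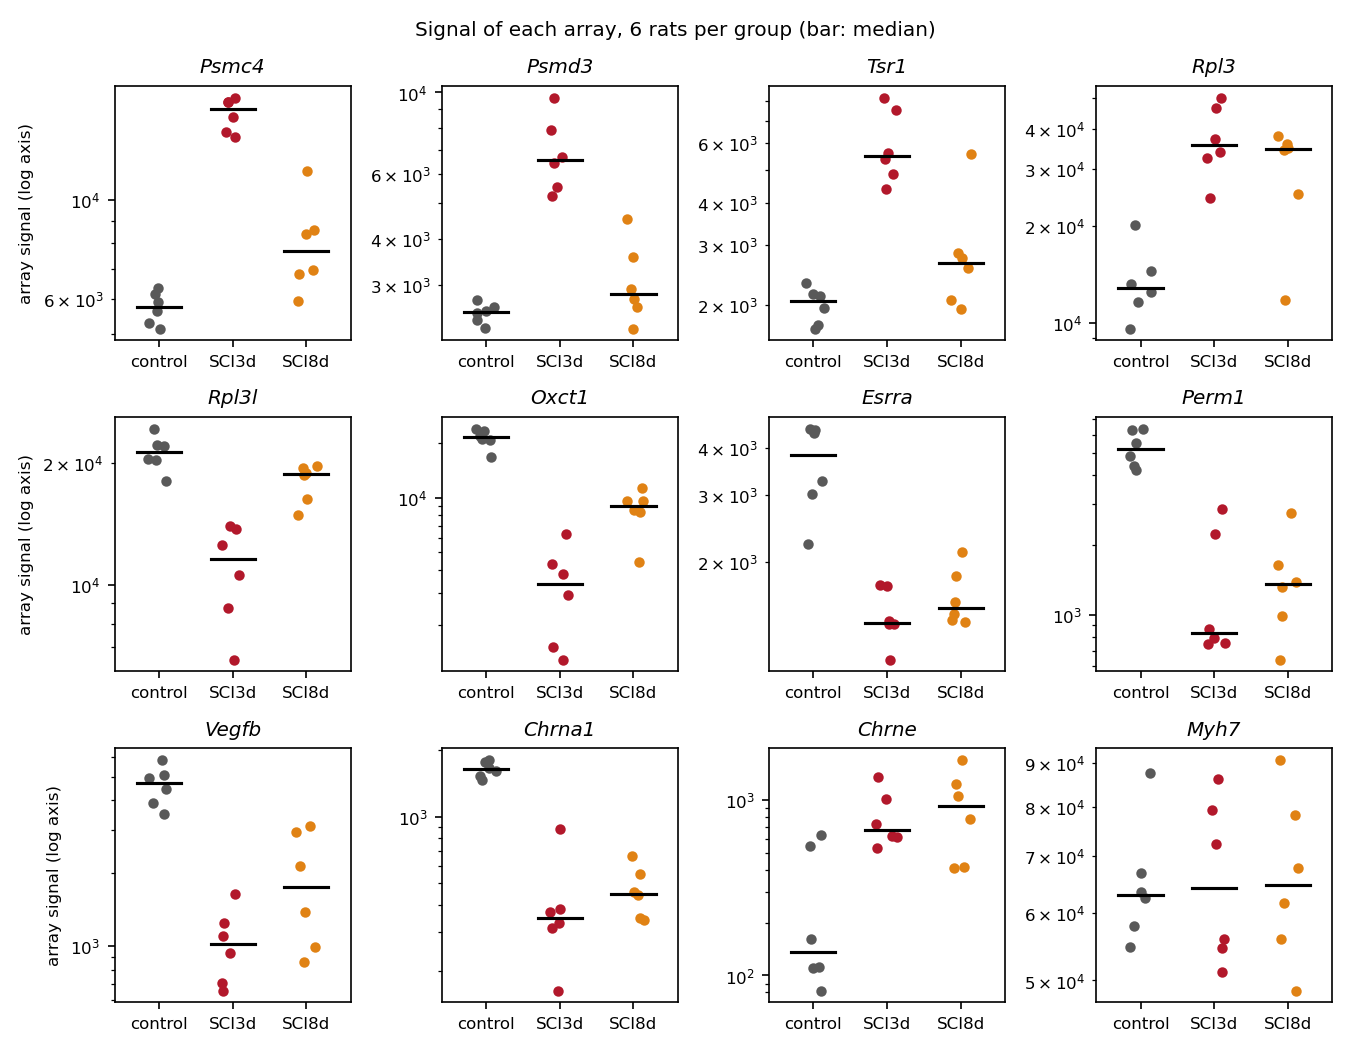
Signals of 12 genes on each array (logarithmic axis) in controls, SCI3d and SCI8d, 1 point an array, with a bar at the median of the group. For Psmc4, Psmd3, Tsr1, Oxct1, Esrra, Perm1 and Vegfb the SCI3d points do not overlap the controls, and for Myh7 they do.

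The genes that build ribosomes rose together. Of 33 measured genes 31 were called higher and 0 lower (median log2 fold change 0.77). Tsr1, needed for the maturation of the small subunit, read from 1698 to 2326 (median 2046) in controls and from 4413 to 8196 (median 5505) in SCI3d. Wdr43, a factor of the early small subunit particle, read from 873 to 1149 (median 991) in controls and from 2045 to 3992 (median 2729) in SCI3d. Wdr12, which with Bop1 and Pes1 forms a complex for the large subunit, read from 757 to 1041 (median 834) in controls and from 1534 to 3070.2 (median 2195) in SCI3d. In all 3 the lowest SCI3d array exceeded the highest control, and the ratios were 2.94-fold, 2.79-fold and 2.57-fold (adjusted p = 2.9e-06, 4.39e-06 and 1.18e-06). Gnl3 (nucleostemin), a nucleolar GTPase, and Nop58, of the particle that methylates ribosomal RNA, had log2 fold changes of 1.35 and 1.23. Mybbp1a, a nucleolar protein that restrains ribosomal RNA synthesis, was 2.19-fold higher (adjusted p = 4.26e-05). As a mean over the list, the SCI3d arrays were 0.53 to 1.35 above the control mean on the log2 scale, while controls lay within -0.03 and 0.02. SCI3d replicates 1 and 2 were the highest of the group by this mean, at 1.20 and 1.35, whereas replicate 3 was the highest by the 19S list, at 1.40, so the animals did not rank alike for both programs.

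The ribosomal proteins themselves were called in 3 of 24 cases, and 2 of those were a pair of paralogs that moved apart. The 2 higher calls among them became 7 without SCI3d replicate 5, 4 without SCI3d replicate 3, and 1 without control replicate 2, 5 or 6 or SCI3d replicate 1, 2 or 4. Rpl3, the general large subunit protein, read from 9597 to 20106 (median 12868) in controls and from 24417 to 50030.2 (median 35632) in SCI3d. Rpl3l, its form that replaces it in skeletal muscle and heart, read from 18107 to 24400.5 (median 21298) in controls and from 6499 to 14012 (median 11542) in SCI3d. Both groups were separated in both genes, with log2 fold changes of 1.46 ± 0.24 and -0.99 ± 0.17 (adjusted p = 4.36e-05 and 7.08e-05). Of 37 initiation factors 18 were higher and 0 lower, a count that fell to 10 with arrays scaled to Gapdh and ran from 12 to 16 with single arrays left out. Eif4a1, the helicase that opens the messenger for scanning, rose 2.24-fold, and Eif3b, a scaffold of the factor that joins the small subunit, 1.93-fold (adjusted p = 8.39e-05 and 1.04e-05). Eif4ebp1, which holds back the cap-binding protein, was also higher (log2 fold change 0.89, adjusted p = 0.00334). Etf1, the release factor that ends translation, read from 2833 to 3373 (median 3099) in controls and from 5252 to 8143 (median 6969) in SCI3d. Aminoacyl-tRNA synthetases, which load amino acids onto tRNA, were called higher in 13 of 21 cases and lower in 1. Nars1 (asparagine) and Kars1 (lysine) were 2.12-fold and 1.79-fold higher (adjusted p = 9.72e-07 and 1.1e-05).

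Chaperones and stress genes followed in part. Of 33 chaperones 12 were called higher and 0 lower, among them subunits of the chaperonin CCT, which folds actin and tubulin. Hspb8, a small heat shock protein of the chaperone complex that clears filamin, read from 13010.2 to 16712 (median 14462) in controls and from 23792 to 44152 (median 35485) in SCI3d. Hspb1 (Hsp27) was 2.24-fold higher (adjusted p = 0.00494). Hspb6, a small heat shock protein of muscle, had a log2 fold change of -0.16 (adjusted p = 0.644). Atf4, the factor of the integrated stress response, was 1.65-fold higher (adjusted p = 0.0016), yet Asns, asparagine synthetase and a usual target, was not called (0.64, 0.179), nor was Ddit3 (-0.18, 0.70). Of the 26 genes of that list 4 were higher and 2 lower, near the share of 21.6% of all genes called. Gadd45a, a growth arrest gene that is induced by denervation, read from 1773 to 3593 (median 2492) in controls and from 6075 to 15531 (median 8120.4) in SCI3d, without overlap. Cdkn1a, the inhibitor p21, ran over overlapping ranges (log2 fold change 1.16, adjusted p = 0.137).

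Genes of glutathione and thioredoxin defence, which NRF2 governs, were called higher in 7 and lower in 2 of 23 cases. Glutathione synthetase (Gss) read from 292 to 424 (median 378) in controls and from 896 to 1448 (median 1171) in SCI3d. Thioredoxin reductase 1 (Txnrd1) read from 2152 to 3495 (median 2747) in controls and from 4053 to 6863 (median 5223) in SCI3d. Both were separated from controls, and so was heme oxygenase 1 (Hmox1), at 2.55-fold. Extracellular superoxide dismutase (Sod3) went the other way and read from 1922 to 4175 (median 2500.0) in controls and from 775 to 1702 (median 1299.5) in SCI3d. Glucocorticoid targets were lower in 2 of 15 cases, near the share of 12.6% of all genes called lower, and higher in 0. The lower count was 1 without control replicate 1, 2 or 6 or SCI3d replicate 1, 2 or 6. Fkbp5 and Tsc22d3, widely used markers of glucocorticoid action, had log2 fold changes of 0.72 (adjusted p = 0.101) and -0.54 (0.0992). Of 18 clock genes 2 were higher and 2 lower, which is near the share of 21.6% of all genes called. The higher count was 0 without control replicate 2 or 5 or SCI3d replicate 4, and 1 without SCI3d replicate 1, 2 or 3. Hlf, an output factor of the clock, read from 658 to 1526 (median 1109) in controls and from 234 to 633 (median 357) in SCI3d. Dbp, which is of the same family, varied widely among controls, from 1151 to 7478, and was 3.27-fold lower in SCI3d (adjusted p = 0.00224). The hour of tissue collection is not given in the sources used here, and its part in the clock values was not tested.

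**Figure D3:**
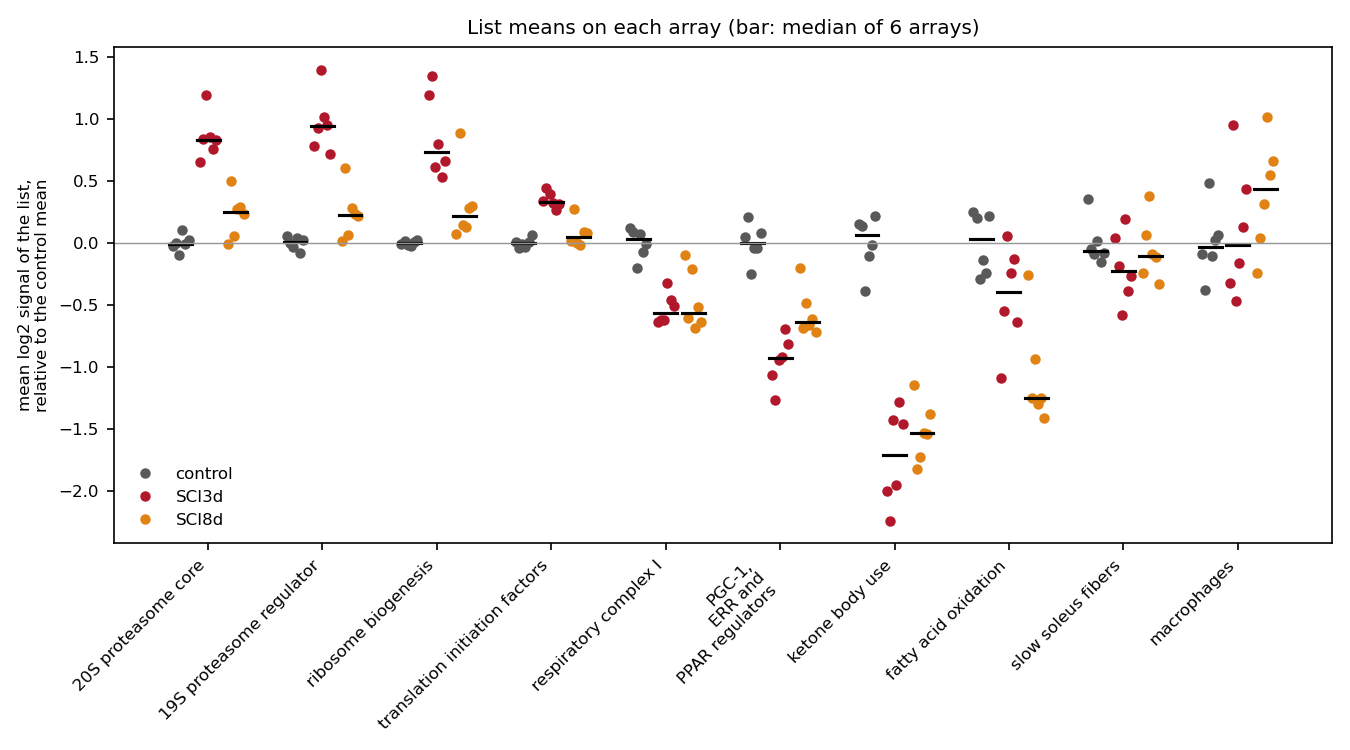
Mean log2 signal over the genes of 10 lists on each array, relative to the control mean of each gene, in controls, SCI3d and SCI8d, 1 point an array. SCI3d arrays lie apart from controls for both proteasome lists, ribosome biogenesis, complex I, ketone body use and the PGC-1, ERR and PPAR list, and overlap them for the slow fiber, fatty acid oxidation and macrophage lists.

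Most regulators of oxidative metabolism were lower. Of 16 genes of the PGC-1, ERR and PPAR list 10 were called lower and 0 higher, with a median log2 fold change of -1.20, and 4 of the 6 that were not called were higher on average, by up to 0.32. Ppargc1a (PGC-1 alpha), the coactivator, read from 549 to 1450.3 (median 918) in controls and from 166 to 679.5 (median 323) in SCI3d. Esrra, the nuclear receptor ERR alpha that it works through, read from 2236 to 4505 (median 3830.4) in controls and from 1103 to 1738 (median 1384) in SCI3d. Perm1, a muscle protein induced by both, read from 4224 to 6379.6 (median 5199) in controls and from 749 to 2854 (median 834) in SCI3d. Each was lower on nearly every SCI3d array, the ranges touching only in Ppargc1a, at log2 fold changes of -1.48 ± 0.37, -1.30 ± 0.19 and -2.16 ± 0.41 (adjusted p = 0.0041, 6.53e-06 and 0.000255). Ppargc1b, Esrrb and Esrrg, the sister genes, fell as well, by 1.17, 1.22 and 1.72 on the log2 scale. Ppara, the receptor for fatty acids, had signals of 6.66 to 11.3 in SCI3d against 53.2 to 182 in controls, which is dim in both groups, so its ratio is poorly set.

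Complex I, the respiratory complex with the most measured genes, held most of the calls. Of its 35 measured genes 22 were lower and 0 higher (median log2 fold change -0.51). Ndufs1, the largest subunit of its iron-sulfur arm, read from 13041 to 19681 (median 18147) in controls and from 4305 to 9968 (median 7099) in SCI3d. Ndufc2, a membrane subunit, read from 13836 to 17508 (median 17096) in controls and from 5781 to 8659.7 (median 8012) in SCI3d. Neither overlapped with controls, while Ndufv1, which takes electrons from NADH, had a log2 fold change of -0.34 (adjusted p = 0.080). In complex II 3 of 4 genes were lower, with Sdhd, its membrane anchor, 1.91-fold lower (adjusted p = 4.67e-06), and in complex III 3 of 8. Cytochrome c oxidase gave 1 call of 13 genes, near the share of 12.6% of all genes called lower. ATP synthase gave 4 of 13, a count that was 2 after median centring, 10 after quantile normalization and 2 without control replicate 1, 2 or 4 or without SCI3d replicate 1, 2, 3 or 5. Cox6a2, a muscle form of an oxidase subunit, and Atp5f1a, the alpha chain of ATP synthase, had log2 fold changes of -0.11 (adjusted p = 0.637) and -0.23 (0.263).

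Transcripts of the citrate cycle and of pyruvate entry were lower in part. Of 23 genes 11 were lower and 0 higher. Mpc1, a subunit of the pyruvate carrier of the inner membrane, read from 26468 to 32840.5 (median 28947) in controls and from 10634 to 15879.8 (median 11546) in SCI3d. Mdh1, the cytosolic malate dehydrogenase of the malate-aspartate shuttle, read from 29369.5 to 38719.9 (median 34401) in controls and from 10585 to 20272 (median 15187) in SCI3d. Citrate synthase (Cs), often used to gauge mitochondrial content, read from 23667 to 31690.3 (median 25594) in controls and from 20263 to 25542 (median 23091) in SCI3d. Mpc1 and Mdh1 were separated from controls at 2.45-fold and 2.22-fold lower, whereas Cs overlapped (log2 fold change -0.21, adjusted p = 0.323). Pdk4, the kinase that shuts pyruvate dehydrogenase when fat is burned, ranged from 4699 to 39188 in controls and from 3303 to 30865 in SCI3d.

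Genes that use ketone bodies were all called, with 4 of 4 genes lower. Oxct1, the enzyme that makes ketone bodies usable, read from 16893 to 24103 (median 21593) in controls and from 1277 to 6319 (median 3363) in SCI3d. Bdh1, which oxidizes beta-hydroxybutyrate, read from 825 to 2043 (median 1439.9) in controls and from 127 to 768 (median 323) in SCI3d. Slc16a1, the transporter MCT1 for lactate and ketone bodies, read from 7448 to 9958 (median 8992) in controls and from 3064 to 6201 (median 4078) in SCI3d. None of the 3 overlapped with controls, and the ratios were 7.36-fold, 4.7-fold and 2.13-fold lower (adjusted p = 1.88e-08, 0.00024 and 8.57e-06). In the mean of its probe sets Slc16a1 had an adjusted p of 0.0573.

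Fatty acid oxidation was called lower in 7 of 21 genes, and in 4 without SCI3d replicate 1, the array with the lowest mean of this list. Acsl1, which activates fatty acids, read from 17328 to 22597 (median 21943) in controls and from 4012 to 12243 (median 7489) in SCI3d. Acadm, the medium-chain dehydrogenase, read from 19439.7 to 27935 (median 25040.4) in controls and from 19788 to 27697 (median 21135) in SCI3d. The first was separated and the second was not (log2 fold changes -1.52 and -0.14, adjusted p = 3.02e-05 and 0.697). Cpt1b, the gate of fatty acids into mitochondria, ran from 5056 to 22241 in SCI3d, the upper end within the controls' range. Of 17 genes of uptake and storage 9 were lower. Lpl, the lipase that frees fatty acids at the vessel wall, read from 27268 to 33136 (median 31119) in controls and from 8029.6 to 22549 (median 11017) in SCI3d. Fabp3, the fatty acid carrier of muscle, read from 39106 to 57792 (median 44424) in controls and from 5777 to 39079.8 (median 13866) in SCI3d. In both the SCI3d arrays were below the controls, and the highest SCI3d array of Fabp3 came close to the lowest control. The mean of this list ran from -1.85 to -0.01 in SCI3d, with replicate 3 at the top.

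Genes of glucose use were lower in part. Slc2a4, the insulin-responsive transporter GLUT4, read from 16477 to 20643 (median 18101) in controls and from 3658 to 12144 (median 8303) in SCI3d. Ugp2, which makes the sugar donor for glycogen, read from 18343 to 27970.1 (median 22268) in controls and from 7784 to 13583 (median 9778) in SCI3d. Both were lower on all SCI3d arrays. Of 16 genes of glycolysis 5 were called lower and 1 higher, and of 10 of glycogen metabolism 4 lower and 0 higher. The shares of all genes were 12.6% lower and 8.98% higher. Pygm, muscle glycogen phosphorylase, had a log2 fold change of -0.21 (adjusted p = 0.545) and hexokinase 2 (Hk2) -0.24 (0.477). Ampd3, an AMP deaminase that is induced in atrophy, read from 6373 to 12610.2 (median 9718) in controls and from 17322 to 26228 (median 23789.8) in SCI3d, against Ampd1, the usual muscle form, which was 1.74-fold lower (adjusted p = 0.00131 and 0.00336). Glutamine synthetase (Glul) was 2.11-fold higher and Srm, which makes the polyamine spermidine, 1.78-fold (adjusted p = 3.14e-05 and 0.00112).

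The ERR element TNAAGGTCA, searched in the same promoter windows on both strands, occurred in 1 of 33 promoters of complex I and in 0 of those of the citrate cycle, fatty acid oxidation and ketone body lists, against 1.12% of all promoters and 0.67% of those of genes on the array. These letters say nothing of more distant or degenerate sites.

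Of 12 contractile genes of slow fibers 10 were lower on average, and up to 3 were called lower over the alternatives run. In the main model 1 of the 12 was called lower, near the share of 12.6% of all genes. That was Pln, phospholamban, which brakes the calcium pump of slow fibers and read from 480.5 to 1414 (median 743) in controls and from 194 to 599 (median 290.3) in SCI3d, with overlap. The pump itself, Atp2a2, had a log2 fold change of -0.37 (adjusted p = 0.0735). Fast myosins gave Myh2 from 3672 to 53020.1 in controls and 22287 to 45644 in SCI3d, and Tnnt3, fast troponin T, from 1941 to 37934 and 21156 to 39460.3. Tnnt3 passed the test (adjusted p = 0.0213) and lost its call without control replicate 1 (0.0939), control replicate 6 (0.0943) or SCI3d replicate 1 (0.0502, each an adjusted p). Embryonic myosin Myh3 read from 9621 to 18141 (median 15914) in controls and from 2228 to 12017 (median 4487) in SCI3d, with a log2 fold change of -1.71 (adjusted p = 0.00314).

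Proteins that bind the sarcomere under strain changed in both directions. Of 19 genes 5 were higher and 3 lower. Mustn1, a small nuclear protein of muscle and bone, read from 8129 to 29766 (median 17924) in controls and from 40701 to 68097 (median 51393) in SCI3d. Xirp1, which binds actin at sites of damage, read from 9714 to 20624 (median 13223) in controls and from 15097 to 70250.2 (median 50030.0) in SCI3d. Mlip, a lamin-binding protein of muscle, read from 5619.6 to 8460.0 (median 7106) in controls and from 2073 to 5210.1 (median 3175) in SCI3d. Mustn1 and Mlip were separated from controls and Xirp1 overlapped, with log2 fold changes of 1.59, -1.17 and 1.59 (adjusted p = 7.82e-06, 9.89e-05 and 0.00299). Of the stretch-responsive ankyrin repeat proteins, Ankrd1 had a log2 fold change of 3.52 (adjusted p = 0.000546), while Ankrd2 ran from 29121 to 38962 in controls and from 13513 to 54014 in SCI3d. Dysferlin (Dysf), a membrane repair protein, read from 3757 to 5501 (median 4442) in controls and from 9242 to 18964 (median 15492) in SCI3d, and sarcospan (Sspn), a membrane protein of the dystrophin complex, from 6962 to 9436 (median 8084) in controls and from 1903 to 5410.5 (median 4304) in SCI3d. The first rose and the second fell without overlap (adjusted p = 3.19e-07 and 0.00075).

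At the synapse, genes of the acetylcholine receptor moved apart. Promoters of its alpha and epsilon subunits are shown because these genes moved in opposite directions and both windows hold the letters CAGCTG, an E-box bound by the myogenic factors, in capitals (RefSeq, build GRCr8, 250 bases before to 50 after the start, Chrna1 at chr3:78877304-78877603 and Chrne at chr10:55834105-55834404, both read along the minus strand).
Chrna1: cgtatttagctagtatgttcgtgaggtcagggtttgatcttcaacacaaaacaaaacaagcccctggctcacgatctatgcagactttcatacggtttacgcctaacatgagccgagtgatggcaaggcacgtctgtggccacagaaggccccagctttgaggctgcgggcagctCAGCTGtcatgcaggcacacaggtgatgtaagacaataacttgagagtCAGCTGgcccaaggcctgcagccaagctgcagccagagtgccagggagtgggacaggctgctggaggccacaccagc
Chrne: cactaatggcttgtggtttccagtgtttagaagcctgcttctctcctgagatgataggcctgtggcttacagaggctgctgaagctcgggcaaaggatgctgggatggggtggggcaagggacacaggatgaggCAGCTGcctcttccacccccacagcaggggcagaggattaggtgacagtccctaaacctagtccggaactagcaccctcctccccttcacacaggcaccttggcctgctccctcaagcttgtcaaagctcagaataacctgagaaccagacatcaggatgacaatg
The letters, which read the same on both strands, stood in 7 of 12 promoters of the synapse list (58.33%) and in 15.14% of all promoters (16.65% for genes on the array). The count covers few promoters and carries no test. Apart from Chrna1 and Chrne, the genes of the list with these letters were not called. Chrna1, the subunit that binds acetylcholine, read from 1459 to 1807 (median 1634) in controls and from 163 to 877 (median 349.8) in SCI3d. Chrne, the subunit of the adult receptor, read from 81.7 to 634 (median 137) in controls and from 530.4 to 1357 (median 674) in SCI3d. Chrna1 was lower on every SCI3d array, at a log2 fold change of -2.19 ± 0.46 (adjusted p = 0.000734), and Chrne was higher with overlapping ranges, at 1.97 ± 0.53 (0.00861). Colq, the collagen tail that anchors acetylcholinesterase, read from 1089 to 1449 (median 1242) in controls and from 245 to 1064 (median 273) in SCI3d. Runx1, a factor known to rise after denervation, read from 1187 to 2311 (median 1864) in controls and from 2544 to 15332 (median 7544) in SCI3d. Other genes that mark denervated fibers were not called, namely Chrnd (log2 fold change -0.40, adjusted p = 0.501), the fetal subunit Chrng (-1.10, 0.435, at dim signals) and Ncam1 (0.95, 0.20). Of the myogenic factors, myogenin (Myog) read from 3250.3 to 4294 (median 3332) in controls and from 2955 to 17299 (median 10877) in SCI3d. Myf6 (MRF4) read from 6426 to 12245 (median 10043) in controls and from 12155 to 21632 (median 16283) in SCI3d. Both were called higher (adjusted p = 0.000535 and 0.000758) with overlap of the groups.

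Signals that set muscle size and fiber type were called in both directions. Of 25 genes of the calcineurin, NFAT and MEF2 list, which ties nerve activity to slow fiber genes, 8 were lower and 5 higher. Rcan2, an inhibitor of calcineurin, read from 5272 to 8011 (median 6325) in controls and from 883 to 2987 (median 1756) in SCI3d. Vgll2, a cofactor of TEAD factors in muscle, read from 7749.6 to 11852 (median 9748) in controls and from 1878 to 6557 (median 3583) in SCI3d. Nfatc1, the nerve activity sensor of slow fibers, read from 2318 to 3065 (median 2774) in controls and from 1257 to 2148 (median 1578) in SCI3d. All 3 were lower without overlap (adjusted p = 2.67e-06, 0.000494 and 0.00223). Hdac4, which represses oxidative genes in denervated muscle, was 2-fold higher (adjusted p = 0.0117).

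In the IGF and insulin list 5 of 28 genes were higher, 1 of them with arrays scaled to Gapdh, and 6 lower. Irs2, an adaptor of the insulin receptor, read from 499 to 1754 (median 1344) in controls and from 294 to 708 (median 493) in SCI3d. Deptor, an inhibitor of mTOR, read from 1588 to 2517 (median 2104) in controls and from 845 to 1212 (median 1129) in SCI3d. Deptor was separated from controls and Irs2 overlapped, both called lower (adjusted p = 0.00299 and 0.000821). Mtor itself was 1.39-fold higher (adjusted p = 0.00421) and Akt1 1.46-fold lower (0.00314). Mtor lost its call with arrays scaled to Gapdh (0.111) and Akt1 in the mean of its probe sets (0.0693, each an adjusted p). Gsk3b, which restrains glycogen and protein synthesis, read from 748 to 1363 (median 905) in controls and from 1509.7 to 5773 (median 3318) in SCI3d. Of 22 genes of myostatin, activin and TGF-beta signaling 2 were called higher and 2 lower, near the share of 21.6% of all genes called. In the activin branch of the TGF-beta family, Inhba, the beta A chain of activin, was 3.63-fold lower (adjusted p = 0.000111), and myostatin (Mstn) was dim and not called (-1.52, 0.113). Of 23 genes of BMP signaling 5 were lower and 1 higher (median log2 fold change -0.45), and 3 were lower without SCI3d replicate 2 or 6. Smad4, the partner shared by both branches, was 1.48-fold and Smad1, of the BMP branch, 1.6-fold higher (adjusted p = 0.00297 and 0.00151), while the ligand Bmp6 was 2.14-fold lower (0.000667). Smad4 lost its call with arrays scaled to Gapdh (0.0974) and Bmp6 in the mean of its probe sets (0.114). Il6st, the receptor gp130 shared by the IL-6 family, read from 4363 to 5659.7 (median 5161) in controls and from 6979 to 9165 (median 7696) in SCI3d, and Tnfrsf12a, the receptor of TWEAK, from 1756 to 4398 (median 2629) in controls and from 4565 to 19462 (median 13338) in SCI3d. Both rose on all SCI3d arrays beyond the controls (adjusted p = 0.000409 and 0.00432), and Stat3 did not pass (0.25, 0.638). Of 22 genes of the IL-6 family and STAT list 2 were called higher and 0 lower, the former near the share of 8.98% of all genes. On average 12 genes of that list were higher and 10 lower. The other probe sets of Il6st were not called, and their mean with the first had a log2 fold change of 0.07 (adjusted p = 0.774).

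Of 25 immediate early genes 2 were higher and 3 lower, near the share of 21.6% of all genes called. Fosl1 was the only Fos or Jun gene called (log2 fold change 3.92, adjusted p = 2.4e-05). Ccn2, the matricellular growth factor CTGF, read from 12779 to 29675 (median 21852) in controls and from 6113 to 11113 (median 8733) in SCI3d. Nr4a2, an orphan receptor induced by activity, read from 368 to 1049.5 (median 687) in controls and from 83.5 to 184 (median 157) in SCI3d. Both were lower on every SCI3d array. Egr1 and Junb, which respond within minutes to handling, ran from 2640.4 to 25662 and from 570.5 to 7729 among controls. The AP-1 letters TGANTCA stood in 0 of 18 promoters of the immediate early list, in 1 of 13 of the sarcomere stress list, in 7.39% of all promoters and in 5.56% of those of genes on the array.

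Collagen genes were called in both directions on day 3, at counts that rested on single arrays. Of 17 collagens 4 were called higher (against 8.98% of all genes), a count that was 0 without SCI3d replicate 2, 1 without control replicate 2 or 6 or SCI3d replicate 1 or 4, and 2 without control replicate 1 or 5 or SCI3d replicate 5, and 2 lower. Col1a1 ranged from 2965 to 46403 in controls and from 7088 to 18689 in SCI3d. Of 34 cell cycle genes 2 were higher and 3 lower, near or below the shares of 8.98% and 12.6% of all genes. Rrm1, a subunit of the enzyme that makes deoxynucleotides, read from 802 to 1118 (median 955) in controls and from 403 to 548 (median 478) in SCI3d. Bub1, a checkpoint kinase of mitosis, read from 269 to 352 (median 292) in controls and from 63.6 to 263 (median 115) in SCI3d. Both were lower on all SCI3d arrays, and Mki67, a marker of dividing cells, was dim and not called (0.59, 0.58). Of 20 matrix proteases and inhibitors 1 was called higher, and 0 without control replicate 2 or SCI3d replicate 1 or 2.

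**Figure D4:**
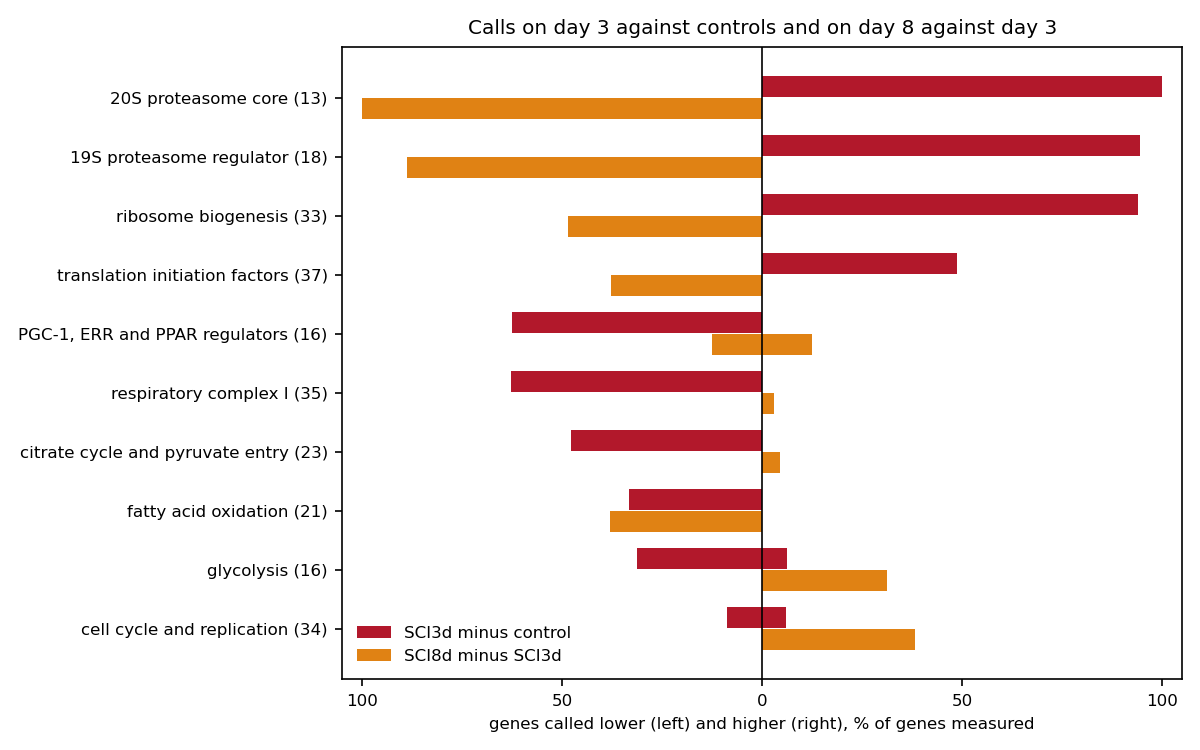
For 10 lists, the number of genes called higher (right) or lower (left) in SCI3d minus control and in SCI8d minus SCI3d, as a percentage of the genes measured. The proteasome and ribosome biogenesis bars change side between the comparisons, and the PGC-1, ERR and PPAR and complex I bars are far shorter in the second.

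A second comparison, SCI8d minus SCI3d, tested which genes had moved by day 8. Its control arrays cancel, while the SCI3d arrays are shared with the first comparison, so a value that was extreme on day 3 by error will tend to move back. Of all genes 676 were called higher on day 8 (4.75%) and 636 lower (4.47%), 9.23% in all. These counts lean on the shared spread of all 36 arrays and on the scaling. Over all probe sets 2109 were called (6.79%), 1135 higher (3.66%) and 974 lower (3.14%), against 597 in a model of the 2 groups alone, and 630 higher and 2003 lower after median centring and 299 and 502 with arrays scaled to Gapdh. Without SCI3d replicate 2 the count was 1339, without SCI8d replicate 4 it was 1343 and without SCI8d replicate 6 it was 1405. All 13 genes of the 20S core and 16 of 18 of the 19S regulator were lower on day 8 than on day 3, with medians of -0.52 and -0.71 on the log2 scale. Psmc4 read from 5944 to 11654 (median 7686) in SCI8d, which is below every SCI3d array, with its lowest array inside the controls' range. Psmd3 read from 2281 to 4534 (median 2835) in SCI8d. Of the ribosome biogenesis genes 16 of 33 were lower and 0 higher, and of the initiation factors 14 of 37, or 9 without SCI3d replicate 2. In the 2 groups alone the counts were 6 for the 20S core, 4 for ribosome biogenesis and 2 for initiation factors.

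Oxidative genes differed by list between days 3 and 8. Of the PGC-1, ERR and PPAR list 2 of 16 genes were higher on day 8 than on day 3 and 2 lower, and of complex I 1 of 35. The lower count of the first list was 1 without SCI3d replicate 2 or 3 or SCI8d replicate 3, 4, 5 or 6, and the count of complex I was 2 without SCI3d replicate 4 or 5 or SCI8d replicate 2. Esrra read from 1391 to 2122 (median 1513) in SCI8d and Perm1 from 639 to 2754 (median 1354) in SCI8d. Their differences from day 3 were 0.17 and 0.18 on the log2 scale (adjusted p = 0.689 and 0.868). Oxct1 rose from day 3 by 1.52 (adjusted p = 0.000994) to from 4416 to 11367 (median 9038) in SCI8d, whereas Bdh1 had -0.50 (0.561). Of fatty acid oxidation 8 of 21 genes were lower still on day 8 (against 4.47% of all genes), and of glycolysis 5 of 16 were higher, GLUT4 (Slc2a4) among them (1.01, adjusted p = 0.0146, or 0.0596 without SCI3d replicate 2). Cell cycle genes were higher on day 8 in 13 of 34 cases, with Bub1 at 1.30 (0.000763). That count was 7 without SCI3d replicate 4, 6 without SCI8d replicate 4, 5 without SCI8d replicate 5 and 5 without SCI8d replicate 6, and 2 with arrays scaled to Gapdh. The mean of the cell cycle list was -0.03 on SCI8d replicate 1 and 0.71 to 1.63 on the other 5 arrays of that group. Fibroblast markers were higher on day 8 as well, in 7 of 13 cases (median log2 difference 0.78), or 4 without SCI8d replicate 4 or 6. Collagens were higher in 5 of 17 cases (median 0.78), a count that was 10 without SCI8d replicate 1, 3 without SCI3d replicate 2 or 5 or SCI8d replicate 3 or 5, and 2 without SCI3d replicate 3 or SCI8d replicate 4 or 6. The part of fibroblasts in the cell cycle counts was not tested. Myh3, low on day 3, was higher by 2.35 (adjusted p = 0.000527), at from 4069 to 40678 (median 29977) in SCI8d. Txnrd1 and Ampd3, high on day 3, were lower by day 8 (-1.36 and -1.91, adjusted p = 2.18e-06 and 9.4e-05). Chrna1 had a difference of 0.34 (adjusted p = 0.746). Mybph read from 10532 to 52427 (median 31701) in SCI8d, overlapping SCI3d.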

How the data were processed

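Total RNA of the left soleus was hybridised to Affymetrix rat expression arrays, 1 rat an array and 6 arrays in each of 6 groups, mapped to groups by sample titles. The deposited values are linear intensity signals that the authors computed with MAS5, each array scaled by the authors to a common trimmed mean. The table held 31099 probe sets. Without the 57 that carry the prefix AFFX, the array's own controls, 31042 remained for testing. Since MAS5 subtracts mismatch signals, ratios of dim probe sets are noisy, and the common scaling makes each value relative to the rest of its array. The number of arrays limits the precision.

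Signals were taken to log2 and fitted with limma 3.58.1 (R 4.3.3) as 6 groups of 36 arrays, with 30 residual degrees of freedom and an intensity trend in eBayes. Benjamini-Hochberg adjustment ran over all 31042 probe sets, and a call is an adjusted p below 0.05. Probe sets with 1 symbol (20826) gave 14217 genes, each read from its probe set of highest mean signal. Another 436 probe sets had several symbols and 9780 had none. Folds are those of mean log2 signals. The code was tested on simulated data. Promoter windows came from RefSeq, build GRCr8. Figures were drawn with matplotlib 3.10.9.

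The members and gene lists were chosen with earlier results of these data known. Named genes were the 15 highest and 15 lowest ratios among called genes above the 40th percentile of mean signal, genes marked in the lists, up to 6 called genes of smallest p in each list, and defining markers. Replicate numbers did not pair the animals. Same-numbered SCI3d and control arrays deviated from their group means with correlations from -0.12 to 0.14. For SCI8d and SCI3d the correlations ran from -0.27 to 0.43, the highest at replicate 6. The counts of fibroblast markers on day 8 with single arrays left out were added after the data were seen.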

Additional observations from a re-analysis of the deposited data

Results flagged for a closer look

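A single array stood apart from the other 5 of its group, by a gap relative to the whole range above the limit of Dixon's test, in 12 of 324 gene and group pairs. Chance alone flags about 1 in 20 groups. In SCI3d the highest array stood off for Adipoq (replicate 4, ratio of gap to range 0.644, signal 841), Chrng (replicate 1, 0.669, signal 142), Colq (replicate 6, 0.676, signal 1064), Mki67 (replicate 6, 0.717, signal 194) and Usp14 (replicate 3, 0.673). The lowest SCI3d array stood off for Esrrg (replicate 2, 0.652, signal 450.1) and Mybph (replicate 3, 0.787, signal 9307). In controls the highest array stood off for Atp2a2 (replicate 1, 0.648), Myh4 (replicate 2, 0.694, signal 7924 against 189 for the next), Myog (replicate 6, 0.673) and Pvr (replicate 4, 0.722, signal 915), and the lowest for myostatin (Mstn, replicate 6, 0.735, signal 14.1).

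Of the 10 genes named with a limma test of SCI8d minus SCI3d, the difference from controls moved between day 3 and day 8 for 6. On the log2 scale Ampd3 moved by -1.91, Bub1 by 1.30, Myh3 by 2.35, Oxct1 by 1.52, Slc2a4 by 1.01 and Txnrd1 by -1.36. In the methods' t-test after Benjamini-Hochberg adjustment Txnrd1 passed and the other 5 did not.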

How the results depend on the processing

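For SCI3d minus control, 5109 of 31042 probe sets were called, and single arrays left out gave 3941 to 5107 (2241 higher, range 1745 to 2278, and 2868 lower, range 2196 to 2857). The count was 3226 with arrays scaled to Gapdh (1351 higher, 1875 lower), 3339 with 1 probe set per gene (1388 higher) and 3031 with probe sets averaged by gene (1311 higher, 1720 lower), the last 2 having fewer features to test. The methods' t-test at its unadjusted threshold gave 7942 (3481 higher, 4461 lower). For SCI8d minus SCI3d, 2109 were called, with 1339 to 2659 over single arrays left out (higher 696 to 1469, lower 634 to 1190). Median centring gave 630 higher and 2003 lower, scaling to Gapdh 801 (299 and 502), the 2 groups alone 597 (326 and 271), averaging by gene 1328 (733 and 595) and the methods' t-test 4948 unadjusted (2902 and 2046) or 53 adjusted (23 and 30). Where no construction is named, the cause was not tested.

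With the replicate number as a block the counts were 5226 and 2200, but the numbers do not pair the animals. The lists together held 316 to 394 called genes with single arrays left out.

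Of 120 called named genes 104 kept the call under every alternative run on the gene's probe set or the mean of its probe sets, and Tnnt3 alone lost it with a single array left out. None turned its direction except by another probe set. Of 80 other probe sets 11 had the opposite sign, none of them called, at log2 fold changes of 0.028 for Akt1, 0.17 for Bmp6, 0.16 for Cs, 0.61 for Foxo3, 0.20 for Hlf, -0.40 and -0.38 for Il6st, -0.86 for Psmb5, -0.23 for Psme4, and -1.25 and -0.30 for Sqstm1. The uncalled day 8 difference of Perm1 ran from -0.035 without SCI8d replicate 3 to 0.44 without SCI3d replicate 5.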
